A study of Mus musculus with 24 samples.

Results

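Hox genes were described here in aorta, kidney, gonadal adipose tissue and liver of adult mice. They were taken as every gene whose annotated symbol is Hoxa, Hoxb, Hoxc or Hoxd followed by a number only, which gave 38 of the 16593 genes on the array. The members fell into 10 Hoxa genes on chromosome 6, 10 Hoxb genes on chromosome 11, 9 Hoxc genes on chromosome 15 and 9 Hoxd genes on chromosome 2. Of the 38 genes, 29 had 1 probe and 9 had several, and each gene was read by its probe with the highest mean over all arrays.

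The 24 Illumina bead arrays held 3 libraries from Glo1+/- mice and 3 from WT mice in each of the 4 tissues. Glo1+/- mice carry a heterozygous knockout of Glo1, the gene of glyoxalase 1, which detoxifies methylglyoxal. Their line had been re-derived by implanting embryos into a WT dam, and all animals of both groups were of strain C57BL/6J, labelled female, 36 weeks old and fed standard chow. The labels describe a constitutive allele with no transgene or Cre, do not say whether equal replicate numbers in different tissues mark the same animal, and do not say that samples of a group came from separate animals, so the p-values measure only the spread between these samples.

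Hox genes encode homeodomain transcription factors that give cells their position along the body axes. In each cluster the genes lie in the order of their paralogue numbers: low numbers are switched on early and towards the head, high numbers later and towards the tail. Adult stromal cells, vessel walls, kidney epithelium and fat depots keep part of this pattern, so the set of Hox genes that a tissue transcribes carries a trace of where it arose. Hox proteins bind DNA with cofactors of the TALE homeodomain class (Pbx, Meis, Pknox), retinoic acid opens the clusters in the embryo, and Polycomb and Trithorax complexes keep them off or on afterwards.

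Values were deposited on a scale that is log2 or a variance-stabilised one close to it, and array medians lay between 8.22 and 8.25. A level counted as above the floor when it exceeded, in that array, the 99th percentile of 1324 probes for olfactory, vomeronasal and trace amine receptors, genes that these tissues are not known for. That floor lay between 8.22 and 8.41. It was 8.22 to 8.26 in adipose tissue, 8.27 to 8.30 in kidney, 8.26 to 8.38 in aorta and 8.35 to 8.41 in liver. Each level and difference below is on the deposited scale, a difference between tissues is averaged over both genotypes, ± after a difference is its standard error, and adjusted p is limma's, over all 25697 probes, called under 0.05. In whole tissue, fewer cells of a type and less RNA per cell cannot be told apart.

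Several libraries stood apart in genes other than Hox. Glo1 was 13.23, 12.90 and 13.15 in Glo1+/- liver, against 13.91, 14.16 and 13.85 in WT liver, a called difference of -0.88 ± 0.11 (adjusted p = 0.00314). Its Glo1+/- mean was lower in all 4 tissues, and the difference was also called in kidney (-0.88 ± 0.15, adjusted p = 0.0223). It was not called in adipose tissue (-0.90 ± 0.18, adjusted p = 0.239) or aorta (-0.63 ± 0.37, adjusted p = 0.948). In aorta, Glo1 was 10.61, 11.08 and 11.90 in Glo1+/- aorta, against 12.17, 12.08 and 11.22 in WT aorta, so the library labelled Glo1+/- aorta 3 lay among the WT aortas. That library also had Ucp1, a marker of brown fat, at 8.14, against 14.57 to 14.82 in the other 5 aortas, and Myh11, of contractile smooth muscle, at 9.13, against 11.12 to 12.15. Thymocyte genes averaged 10.58 in WT aorta 3 and skeletal muscle genes 11.46 in WT aorta 2. Kidney tubule genes averaged 8.30 to 10.99 in Glo1+/- adipose tissue and 8.29 to 10.13 in WT adipose tissue, against 12.37 to 12.59 in kidney, and epididymis genes averaged 12.05 in Glo1+/- adipose 3, against 8.15 to 8.33 in the WT adipose libraries. Hepatocyte genes averaged 8.61 to 10.16 in Glo1+/- adipose tissue and 9.56 to 11.45 in WT adipose tissue, 9.56 in Glo1+/- aorta 3 and 9.69 in WT kidney 1, against 12.58 to 12.77 in liver. Adipocyte genes averaged 9.33 and 9.73 in WT kidney 2 and 3, and 8.97 to 9.06 in the other 4 kidneys. They averaged 12.67 in Glo1+/- aorta 3 and 11.59 to 11.75 in the other 5 aortas, against 12.58 to 12.88 in adipose tissue. Smooth muscle genes averaged 9.86 in Glo1+/- aorta 3 and 10.92 to 11.44 in the other 5 aortas. The part of fat in the aorta values was not tested. In all 24 libraries Xist lay at 8.10 to 8.25 and the Y-linked Eif2s3y at 10.33 to 11.28, against the labelled sex. Marker lists of kidney, adipose tissue and liver were above the floor in their own tissue (9 of 9 kidney tubule genes in every kidney library, 7 of 7 adipocyte genes in every adipose library, at least 8 of 10 hepatocyte genes in every liver library). The probe of Alb, the defining hepatocyte gene, read only 8.96 to 9.86 in liver. The arrays came on 3 slides by the identifiers in the labels: adipose tissue on slide 1, aorta on slide 3, liver on slides 1 and 2, and kidney on slides 2 and 3. Of the livers, 2 WT libraries were on slide 1, and 1 WT and 3 Glo1+/- libraries on slide 2. Of the kidneys, 3 WT and 1 Glo1+/- libraries were on slide 2, and 2 Glo1+/- libraries on slide 3. Genotype and slide therefore overlap in part in liver and kidney and cannot be fully told apart there.

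Kidney and adipose tissue held the widest Hox sets and liver almost none. In kidney 17 of the 38 genes were above the floor in all 6 arrays, in adipose tissue 16, in aorta 11 and in liver 2. These are 44.7, 42.1, 28.9 and 5.26% of the Hox genes, and of all probes 41.7% were above the floor in kidney, 44.1% in adipose tissue, 36.8% in aorta and 36% in liver, so kidney and adipose tissue were near the background and liver far below it. By cluster, in the order Hoxa, Hoxb, Hoxc and Hoxd, aorta held 5, 4, 1 and 1 genes, kidney 4, 5, 3 and 5, adipose tissue 5, 5, 2 and 4, and liver 1, 1, 0 and 0. The 3 tissues other than liver shared 9 genes (Hoxa5, Hoxa7, Hoxa13, Hoxb2, Hoxb4, Hoxb5, Hoxb7, Hoxc6 and Hoxd8). Aorta and adipose tissue also had Hoxa2 and Hoxa4, kidney and adipose tissue also had Hoxb6, Hoxc9, Hoxd4, Hoxd9 and Hoxd10, and Hoxa9, Hoxc10 and Hoxd3 were above the floor in all 6 arrays of kidney alone. The floor was lowest in adipose tissue. There Hoxa2, Hoxa13, Hoxb6 and Hoxd10 had lowest values between 8.24 and 8.34, under every liver floor. With a floor fixed at 9, the counts were 12 in kidney, 7 in adipose tissue, 5 in aorta and 0 in liver.

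Among the 7 members of paralogues 1 to 3, aorta, kidney and adipose tissue each held 2 and liver 0. Among the 15 members of paralogues 4 to 8, aorta held 8, kidney 9, adipose tissue 10 and liver 1. Among the 16 members of paralogues 9 to 13, aorta held 1, kidney 6, adipose tissue 4 and liver 1. The single late gene in aorta and in liver was Hoxa13. Only 1 of the 3 Hoxa13 probes was above the floor, while the others stayed between 8.02 and 8.19, and that probe was brightest in liver, so the Hoxa13 values are uncertain. In all, 13 genes were above the floor in no array: Hoxa3, Hoxa6, Hoxa11, Hoxb1, Hoxb8, Hoxb13, Hoxc5, Hoxc11, Hoxc12, Hoxc13, Hoxd1, Hoxd12 and Hoxd13. A further 6 (Hoxa10, Hoxb3, Hoxb9, Hoxc4, Hoxc8 and Hoxd11) were above it in some arrays only and in no tissue in all 6.

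**Figure D1:**
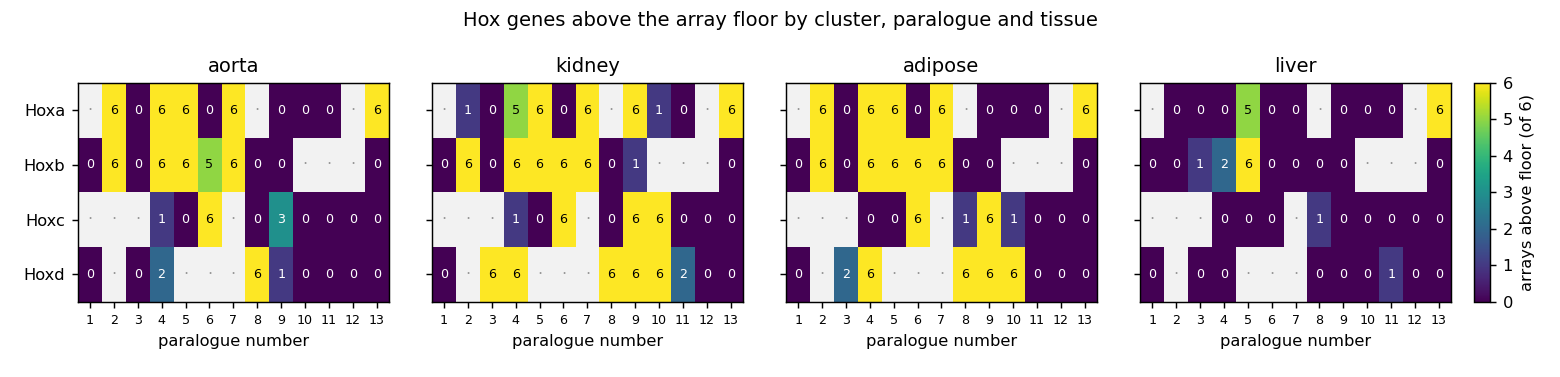
Number of arrays (of 6, both genotypes) in which each Hox gene exceeded that array's floor, with clusters as rows and paralogue numbers 1 to 13 as columns, for aorta, kidney, adipose tissue and liver. Dots mark positions not shown. Kidney reached 6 arrays at paralogue 10 of Hoxc and Hoxd, adipose tissue at paralogue 10 of Hoxd, and liver at Hoxa13 and Hoxb5 only.

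Hoxd8, Hoxd9 and Hoxd10, which are neighbours in the Hoxd cluster, were highest in kidney. They are known for patterning of the trunk, limb and urogenital system. Hoxd10 stayed at 8.14 to 8.26 in aorta. In kidney it had 10.72, 10.65 and 10.40 in Glo1+/- kidney, against 10.92, 10.85 and 10.96 in WT kidney, while it had 8.94, 8.41 and 8.35 in Glo1+/- adipose tissue, against 8.37, 8.24 and 8.28 in WT adipose tissue. The 6 kidneys lay above all other libraries, and Glo1+/- adipose 1 was the highest outside kidney. The difference was 2.32 ± 0.08 (adjusted p = 7.95e-16) for kidney minus adipose tissue and -2.56 ± 0.08 (adjusted p = 1.71e-16) for aorta minus kidney, and kidney was at least 5.23-fold above liver. Aorta minus adipose tissue was -0.24 ± 0.08 (adjusted p = 0.0286), and -0.14 ± 0.06 (adjusted p = 0.0784) without Glo1+/- adipose 1, the library with the highest kidney tubule genes; their part in it was not tested. That call was also lost without any 1 of WT adipose 1, Glo1+/- aorta 1 or WT aorta 1 (-0.22 to -0.23, adjusted p = 0.0686, 0.0589 and 0.0536), and was -0.04 ± 0.25 (adjusted p = 0.966) with slide as a block. A bound written as at least sets the mean of the brighter tissue against the array floor of the dimmer one.

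Hoxd9 had 10.46, 10.63 and 10.67 in Glo1+/- kidney, against 10.64, 10.52 and 10.63 in WT kidney, and 9.18, 8.997 and 9.33 in Glo1+/- adipose tissue, against 8.75, 8.74 and 8.75 in WT adipose tissue. Kidney was above adipose tissue without overlap, and adipose tissue was above every liver, at 8.10 to 8.20. Kidney minus adipose tissue was 1.63 ± 0.08 (adjusted p = 1.09e-13) and adipose tissue minus liver 0.81 ± 0.08 (adjusted p = 9.13e-09). In aorta Hoxd9 had 8.17, 8.26 and 8.70 in the Glo1+/- libraries, against 8.22, 8.26 and 8.14 in the WT libraries, so only the library labelled Glo1+/- aorta 3 was above the floor.

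Hoxd8 was above the floor in all but liver. It had 8.53, 8.97 and 10.37 in Glo1+/- aorta, against 8.90, 8.76 and 8.75 in WT aorta. In kidney the values were 11.77, 11.54 and 11.61 in Glo1+/- kidney, against 11.64, 11.73 and 11.72 in WT kidney, and in adipose tissue 10.78, 10.26 and 10.84 in Glo1+/- adipose tissue, against 9.92, 10.17 and 10.01 in WT adipose tissue. Kidney was highest, adipose tissue next, and aorta lowest apart from the library labelled Glo1+/- aorta 3, which lay in the adipose range. Kidney was at least 9.87-fold and adipose tissue at least 3.91-fold above liver. The aorta minus kidney difference was -2.62 ± 0.19 (adjusted p = 1.67e-10), or -2.89 ± 0.10 (adjusted p = 3.19e-16) when the library labelled Glo1+/- aorta 3 was left out, and kidney minus adipose tissue was 1.34 ± 0.19 (adjusted p = 5.12e-06), with an adjusted p of 0.0565 when slide was a block.

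The 250 bases upstream of these 3 neighbouring genes and of Hoxa5, which was higher in aorta than in kidney, are shown because aorta and kidney stood in opposite orders for them. The sequences are RefSeq's on GRCm38.p6, read 5′ to 3′ on the gene's strand, with matches to the CCAAT box (CCAAT, or ATTGG on the other strand) in capitals. Hoxd8, Hoxd9 and Hoxd10 lie on the plus strand at chr2:74704365-74704614, chr2:74697513-74697762 and chr2:74691641-74691890, and Hoxa5 on the minus strand at chr6:52204588-52204837.
Hoxd8: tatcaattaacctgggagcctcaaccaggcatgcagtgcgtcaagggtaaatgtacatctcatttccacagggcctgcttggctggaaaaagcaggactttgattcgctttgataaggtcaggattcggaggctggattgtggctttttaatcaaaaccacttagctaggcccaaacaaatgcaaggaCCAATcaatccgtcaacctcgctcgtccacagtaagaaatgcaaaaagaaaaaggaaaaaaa
Hoxd9: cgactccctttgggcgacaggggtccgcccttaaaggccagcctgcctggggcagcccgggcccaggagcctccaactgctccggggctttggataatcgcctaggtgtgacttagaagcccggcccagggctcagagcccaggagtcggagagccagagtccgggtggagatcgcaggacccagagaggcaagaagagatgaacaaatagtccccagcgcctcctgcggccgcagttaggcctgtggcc
Hoxd10: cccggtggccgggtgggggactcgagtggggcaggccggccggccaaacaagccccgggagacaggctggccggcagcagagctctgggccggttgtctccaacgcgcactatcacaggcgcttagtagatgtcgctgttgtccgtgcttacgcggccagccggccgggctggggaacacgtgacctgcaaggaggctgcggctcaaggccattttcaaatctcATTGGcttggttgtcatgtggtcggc
Hoxa5: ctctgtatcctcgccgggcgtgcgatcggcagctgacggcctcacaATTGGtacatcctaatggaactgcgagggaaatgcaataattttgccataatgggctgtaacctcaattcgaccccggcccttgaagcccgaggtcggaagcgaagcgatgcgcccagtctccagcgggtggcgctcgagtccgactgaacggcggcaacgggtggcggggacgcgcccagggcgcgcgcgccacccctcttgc
The CG dinucleotide occurs 6 times in the Hoxd8 window, 13 times in that of Hoxd9, 20 times in that of Hoxd10 and 28 times in that of Hoxa5. The table held 24 promoters of 22 Hox genes. In windows of this kind the CCAAT box occurred, on either strand, in 14 of the 24 Hox promoters (58.3%) and in 33.8% of all 32851 promoters. The TATAAA box occurred in 4 Hox promoters (16.7%) and in 12.4% of all. The median CG count was 12.5 in Hox promoters and 6 in all, with medians of 12 for the 11 promoters of Hox genes above the floor in some tissue and 13 for the other 13. These matches describe letters, and none was tested as a site.

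The remaining Hoxd genes were dim. Hoxd4, an early gene of the hindbrain and neck, had 9.08, 9.23 and 8.85 in Glo1+/- kidney, against 9.12, 9.18 and 9.19 in WT kidney, and 9.09, 9.30 and 9.70 in Glo1+/- adipose tissue, against 8.82, 8.99 and 9.23 in WT adipose tissue. In aorta the library labelled Glo1+/- aorta 3 stood at 9.35 and the other 5 between 8.19 and 8.34, near the floor. Kidney minus liver was 1.02 ± 0.15 (adjusted p = 5.69e-06) for Hoxd4 and adipose tissue minus liver 1.10 ± 0.15 (adjusted p = 1.64e-06). Hoxd3 was barely above the floor in kidney, at 8.30 to 8.41. Hoxd1, Hoxd12 and Hoxd13 were at the floor in every array, and Hoxd11, whose paralogue group is needed for the embryonic kidney, exceeded it in 2 kidney libraries and 1 liver library.

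Hoxc genes marked adipose tissue and kidney. Hoxc6, a gene of the thoracic region, reached 12.43, 12.48 and 12.51 in Glo1+/- adipose tissue, against 12.79, 12.61 and 12.09 in WT adipose tissue. In aorta it had 11.57, 11.39 and 12.08 in Glo1+/- aorta, against 11.09, 11.27 and 11.08 in WT aorta, and in kidney 10.98, 10.66 and 10.73 in Glo1+/- kidney, against 10.78, 11.11 and 11.24 in WT kidney. All 6 adipose libraries lay above every aorta and kidney, although the library labelled Glo1+/- aorta 3 was only just below the lowest of them, and the aorta and kidney ranges overlapped. Liver stayed at 8.07 to 8.17, so adipose tissue was at least 17.4-fold, aorta at least 8.26-fold and kidney at least 5.87-fold above it. Kidney minus adipose tissue was -1.56 ± 0.12 (adjusted p = 3.51e-10) and aorta minus kidney 0.49 ± 0.12 (adjusted p = 0.00202). In the WT arrays alone aorta minus kidney was 0.10 ± 0.16 (adjusted p = 0.731) and not called.

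Hoxc9, a gene of the lower trunk, had 10.24, 9.88 and 10.16 in Glo1+/- kidney, against 10.13, 10.06 and 10.22 in WT kidney, and 10.04, 10.51 and 10.31 in Glo1+/- adipose tissue, against 10.48, 10.30 and 9.80 in WT adipose tissue. Kidney and adipose tissue overlapped, with a difference of -0.13 ± 0.21 (adjusted p = 0.727). In aorta it had 8.21, 8.17 and 10.01 in Glo1+/- aorta, against 8.37, 8.59 and 8.18 in WT aorta, so the library labelled Glo1+/- aorta 3 was again in the adipose range and the others near the floor. Aorta minus kidney was -1.52 ± 0.21 (adjusted p = 4.14e-06), or -1.83 ± 0.11 (adjusted p = 3.57e-12) without that library, and -1.22 ± 0.48 (adjusted p = 0.147) within slide 3, where it was not called. Aorta minus liver, 0.51 ± 0.21 (adjusted p = 0.0671), missed the threshold, and was called without Glo1+/- aorta 1 (0.66 ± 0.21, adjusted p = 0.0166) or without Glo1+/- aorta 2.

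Hoxc10, a lumbar gene, was high in kidney alone, at 9.70, 9.70 and 9.77 in Glo1+/- kidney, against 9.81, 9.62 and 9.75 in WT kidney, with 8.10 to 8.21 in aorta, 8.12 to 8.39 in adipose tissue and 8.10 to 8.18 in liver. All 6 kidneys lay above all 18 other libraries, and a second Hoxc10 probe averaged 9.22 in kidney and 8.22 to 8.26 elsewhere. Kidney minus adipose tissue was 1.52 ± 0.05 (adjusted p = 3.05e-16), and kidney was at least 2.57-fold above liver. Hoxc4 and Hoxc8 exceeded the floor in 2 libraries each, and Hoxc5, Hoxc11, Hoxc12 and Hoxc13 in none.

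The Hoxa cluster held the genes that were higher in aorta than elsewhere. Hoxa5, needed for lung, trachea and cervico-thoracic patterning, had 12.07, 12.21 and 10.05 in Glo1+/- aorta, against 11.67, 11.69 and 11.91 in WT aorta. It had 10.26, 10.15 and 10.13 in Glo1+/- kidney, against 10.17, 10.20 and 10.13 in WT kidney, and 10.43, 10.43 and 10.71 in Glo1+/- adipose tissue, against 10.14, 10.20 and 10.26 in WT adipose tissue. Of the aortas, 5 lay above every kidney, adipose and liver library, and the library labelled Glo1+/- aorta 3 lay just below the kidney and adipose values. Liver was lowest, at 8.32 to 8.85, with 5 of 6 libraries above the floor. The aorta minus kidney difference was 1.42 ± 0.23 (adjusted p = 2.46e-05), or 1.77 ± 0.07 (adjusted p = 1.61e-14) when the library labelled Glo1+/- aorta 3 was left out. With that library included, it was 1.30 ± 0.55 (adjusted p = 0.175) within slide 3. Aorta minus adipose tissue was 1.24 ± 0.23 (adjusted p = 0.000283) and 1.59 ± 0.07 (adjusted p = 2.39e-13) without that library, and 1.04 ± 0.76 (adjusted p = 0.574) with slide as a block and all libraries. Brown adipocyte genes averaged 11.56 to 11.87 in the 5 other aortas, against 8.38 in the library labelled Glo1+/- aorta 3 and 8.32 to 8.52 in adipose tissue, and their part in the Hoxa5 and Hoxa4 values was not tested.

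Hoxa4, a paralogue of the neck region, showed a similar order at lower levels, with 9.77, 9.91 and 8.63 in Glo1+/- aorta, against 9.69, 9.66 and 9.66 in WT aorta. Adipose tissue had 8.50 to 8.71, kidney 8.20 to 8.41 and liver 8.17 to 8.38. The 5 other aortas lay above all libraries of the other tissues, and the library labelled Glo1+/- aorta 3 lay among the adipose libraries. Aorta minus kidney was 1.22 ± 0.14 (adjusted p = 1.53e-07), or 1.42 ± 0.05 (adjusted p = 2.94e-15) without it. Hoxa2, which patterns the second pharyngeal arch, was close to the floor, at 8.32 to 8.75 in aorta and 8.27 to 8.49 in adipose tissue.

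Hoxa7 ran the other way. It had 9.86, 10.05 and 9.89 in Glo1+/- aorta, against 9.84, 10.17 and 9.80 in WT aorta, 10.90, 10.77 and 10.66 in Glo1+/- kidney, against 10.78, 10.90 and 10.95 in WT kidney, and 10.11, 10.58 and 10.42 in Glo1+/- adipose tissue, against 9.97, 9.95 and 9.98 in WT adipose tissue. Kidney lay above both other tissues without overlap, liver was at the floor at 8.07 to 8.25, and kidney was at least 5.51-fold above liver. Aorta minus kidney was -0.89 ± 0.08 (adjusted p = 7.27e-09). Aorta minus adipose tissue, -0.23 ± 0.08 (adjusted p = 0.0379), lost its call in 8 of the fits that left out 1 library and was -0.04 ± 0.26 (adjusted p = 0.959) with slide as a block. Hoxa9, a posterior gene best known from blood stem cells, was high in kidney alone, with 8.98, 8.92 and 8.80 in Glo1+/- kidney, against 8.97, 8.78 and 8.72 in WT kidney, and 8.13 to 8.18, 8.13 to 8.22 and 8.13 to 8.21 in aorta, adipose tissue and liver. A second Hoxa9 probe had the same pattern (kidney mean 8.88, elsewhere 8.08 to 8.10), and the other probe averaged 8.12 in kidney. Hoxa13, whose protein patterns hindgut and digits, read 8.47 to 9.14 in aorta, 8.43 to 8.75 in kidney, 8.34 to 8.50 in adipose tissue and 8.73 to 9.04 in liver from its 1 bright probe. Its kidney minus liver difference of -0.27 ± 0.09 (adjusted p = 0.0184) was called, but missed the threshold with slide as a block (adjusted p = 0.0665) and without any 1 of WT liver 3, WT kidney 2 or Glo1+/- kidney 2.

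Hoxb genes 2 to 7 were shared by kidney and adipose tissue apart from Hoxb3, and aorta had the same set except Hoxb6, which exceeded the floor in 5 of 6 aortas. Hoxb7 had 9.72, 9.48 and 9.80 in Glo1+/- aorta, against 9.85, 9.93 and 9.31 in WT aorta, and 11.40, 11.31 and 11.40 in Glo1+/- kidney, against 11.53, 11.75 and 11.43 in WT kidney. In adipose tissue it had 10.63, 9.89 and 11.64 in Glo1+/- adipose tissue, against 10.00, 10.11 and 10.07 in WT adipose tissue, so Glo1+/- adipose 3 was as high as the kidneys and the other 5 lay below them. Kidney was at least 8.60-fold, adipose tissue at least 4.07-fold and aorta at least 2.49-fold above liver. A Hoxb7 promoter fragment is widely used to mark the ureteric bud and collecting ducts of the mouse kidney. Kidney minus adipose tissue was 1.08 ± 0.18 (adjusted p = 4.01e-05), with an adjusted p of 0.164 when slide was a block, and aorta minus kidney -1.79 ± 0.18 (adjusted p = 3.5e-08).

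Hoxb6, next to Hoxb7, had 9.59, 9.63 and 9.56 in Glo1+/- kidney, against 9.36, 9.53 and 9.31 in WT kidney, and 8.85, 8.49 and 9.73 in Glo1+/- adipose tissue, against 8.49, 8.40 and 8.34 in WT adipose tissue. All 6 kidneys lay below Glo1+/- adipose 3 and above the other 5 adipose libraries, and kidney minus adipose tissue was 0.79 ± 0.13 (adjusted p = 3.15e-05), with an adjusted p of 0.136 when slide was a block. Hoxb2, which acts with Hoxb1 in the hindbrain, had 8.88, 8.96 and 9.03 in Glo1+/- aorta, against 8.80, 8.98 and 8.83 in WT aorta, and 9.64, 9.64 and 9.47 in Glo1+/- kidney, against 9.54, 9.63 and 9.34 in WT kidney, a difference of -0.63 ± 0.09 (adjusted p = 3.63e-06). Adipose tissue read 8.83, 8.74 and 9.39 in Glo1+/- adipose tissue, against 8.76, 8.81 and 8.96 in WT adipose tissue, and again Glo1+/- adipose 3 was the highest adipose library. In that library Lcn8, an epididymal gene, read 14.83, and the part of epididymal RNA in its Hoxb values was not tested.

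Hoxb5 and Hoxb4 differed little between aorta and kidney. Hoxb5 ranged over 9.55 to 9.95 in aorta, 9.57 to 10.03 in kidney and 9.85 to 10.23 in adipose tissue, and was the one Hoxb gene above the floor in all livers, at 8.73, 8.69 and 8.60 in Glo1+/- liver, against 8.83, 8.77 and 9.19 in WT liver. Aorta minus liver was 0.93 ± 0.09 (adjusted p = 2.41e-08), or 0.60 ± 0.21 (adjusted p = 0.0543) and not called with slide as a block. Kidney minus liver was 0.98 ± 0.09 (adjusted p = 1.18e-08) and adipose tissue minus liver 1.21 ± 0.09 (adjusted p = 3.17e-10). Aorta minus kidney was -0.05 ± 0.09 (adjusted p = 0.775) for Hoxb5 and 0.02 ± 0.09 (adjusted p = 0.902) for Hoxb4, neither called. Hoxb4, known for expanding blood stem cells, ranged over 8.58 to 9.11 in aorta, 8.78 to 9.17 in kidney and 8.62 to 9.45 in adipose tissue. Hoxb1, Hoxb8 and Hoxb13 were at the floor in every array.

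**Figure D2:**
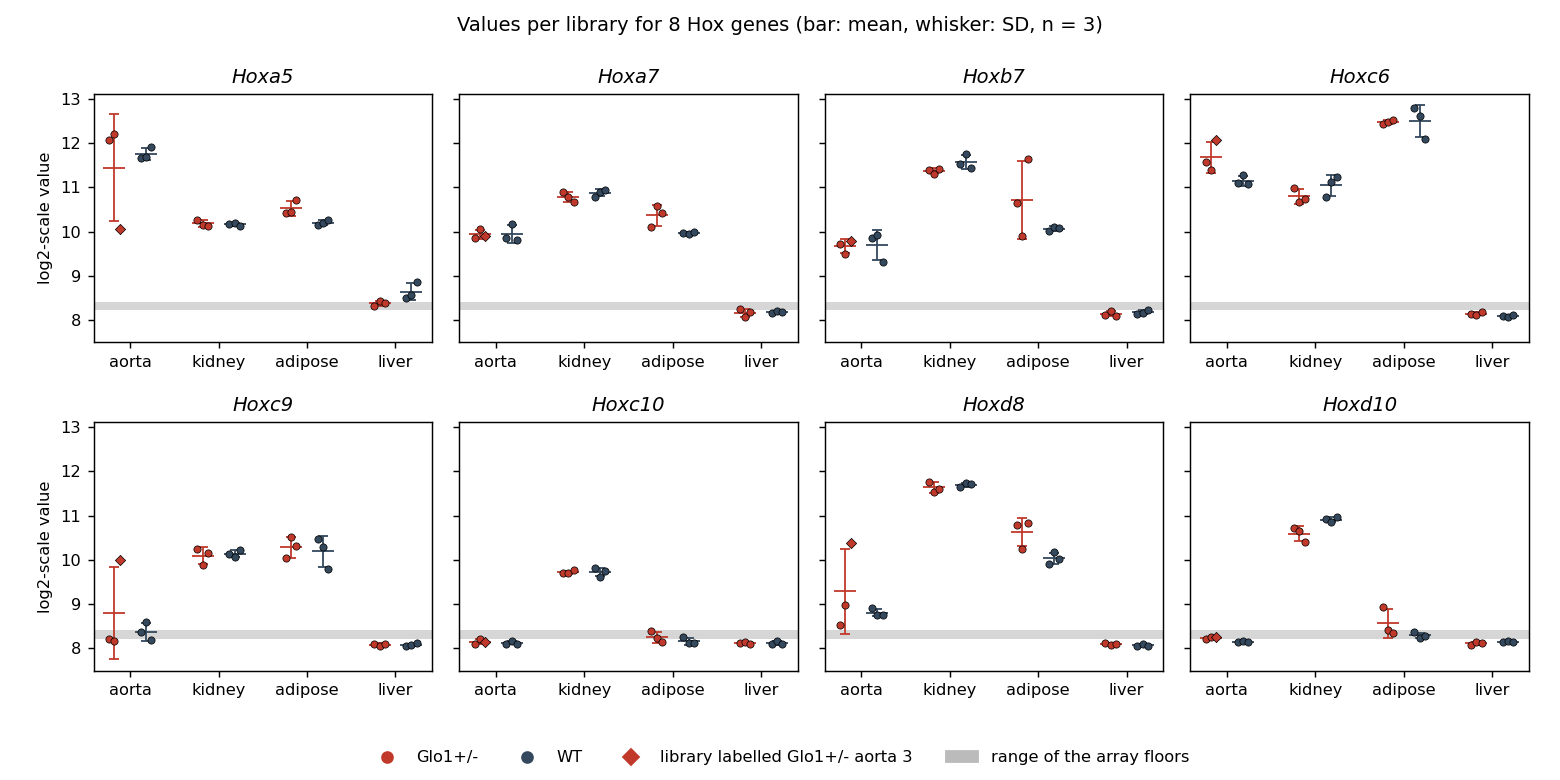
Deposited log2-scale value of 8 Hox genes in each of the 24 libraries, by tissue, with Glo1+/- (red) left of WT (dark), bars for the mean and whiskers for the SD of 3 libraries, a diamond for the library labelled Glo1+/- aorta 3 and a grey band for the range of array floors (8.22 to 8.41). Hoxd10 and Hoxc10 are high in kidney, Hoxc6 in adipose tissue and Hoxa5 in aorta, and all 8 lie lowest in liver or at the floor there.

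Counted over all 38 genes, most called differences from liver were towards higher levels. Kidney minus liver had 23 called genes (60.5%, against 33.2% of all probes), with 19 higher in kidney (50% against 17.4%) and 4 lower (10.5% against 15.8%). Adipose tissue minus liver had 19 (50% against 40.4%), with 15 higher (39.5% against 21.4%) and 4 lower (10.5% against 19%). Aorta minus liver had 12 (31.6% against 38.4%), with 10 higher (26.3% against 21.9%) and 2 lower (5.26% against 16.5%), so its total was not above the background. Aorta minus kidney had 19 (50% against 35%), with 5 higher in aorta (13.2% against 19.3%) and 14 lower (36.8% against 15.7%). Kidney minus adipose tissue had 15 (39.5% against 36.8%), with 13 higher (34.2% against 17.3%) and 2 lower (5.26% against 19.4%). Aorta minus adipose tissue had 12 (31.6% against 27.2%), with 3 higher (7.89% against 13%) and 9 lower (23.7% against 14.2%). The shares were not tested against each other. Over the 4 tissues together 23 genes differed by the F test, or 60.5% against 54.9% of all probes, which is near the background. Medians over the 38 genes were 0.06 for kidney minus liver and -0.02 for aorta minus kidney, beside -0.002 and 0.007 over all probes. Of the 38 genes, 19 were above the floor in all 6 arrays of no tissue. The other 19 genes supplied 17 of the 23 kidney minus liver calls and 16 of the 19 adipose tissue minus liver calls. For aorta minus liver they supplied 10 of 12, for kidney minus adipose tissue 11 of 15 and for aorta minus kidney 16 of 19. They supplied all 12 for aorta minus adipose tissue. The remaining calls fell on genes at or near the floor.

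Tissue and slide overlap in part. With slide as a block, 19 of the 23 kidney minus liver calls, 16 of the 19 aorta minus kidney calls, 12 of the 19 adipose tissue minus liver calls, 7 of the 15 kidney minus adipose tissue calls, 6 of the 12 aorta minus liver calls and 0 of the 12 aorta minus adipose tissue calls were made. Over all probes that last comparison kept only 0.14% called, because aorta and adipose tissue share no slide and are then compared only through kidney and liver. The direction of all 12 was the same as without the block. Of the 19 adipose tissue minus liver calls, 17 kept their direction. The other 2, both genes above the floor in no tissue in all 6 arrays and named after their values were seen, were Hoxb3, at -0.10 ± 0.04 (adjusted p = 0.0452) without the block and 0.02 ± 0.06 (adjusted p = 0.845) with it, and Hoxd11, at -0.13 ± 0.04 (adjusted p = 0.00838) and 0.01 ± 0.05 (adjusted p = 0.912).

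The library labelled Glo1+/- aorta 3 was closer in its Hox values to the adipose libraries than to the other aortas. Over the 19 genes above the floor in some tissue, its root mean square difference was 0.25 from the adipose mean, 0.82 from the mean of the other 5 aortas, 1.07 from the kidney mean and 1.39 from the liver mean. Each of the other 5 aortas differed from the mean of its other 4 by 0.12 to 0.17. For 8 genes the other aortas and the adipose libraries did not overlap, and there the library lay in the adipose range for 5, in the aorta range for 0 and in neither for 3, nearer to the adipose mean in all 8. Of these 8 genes, Hoxa4, Hoxa5 and Hoxa13 were below the other aortas in it, and Hoxc6, Hoxc9, Hoxd4, Hoxd8 and Hoxd9 were above them.

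**Figure D3:**
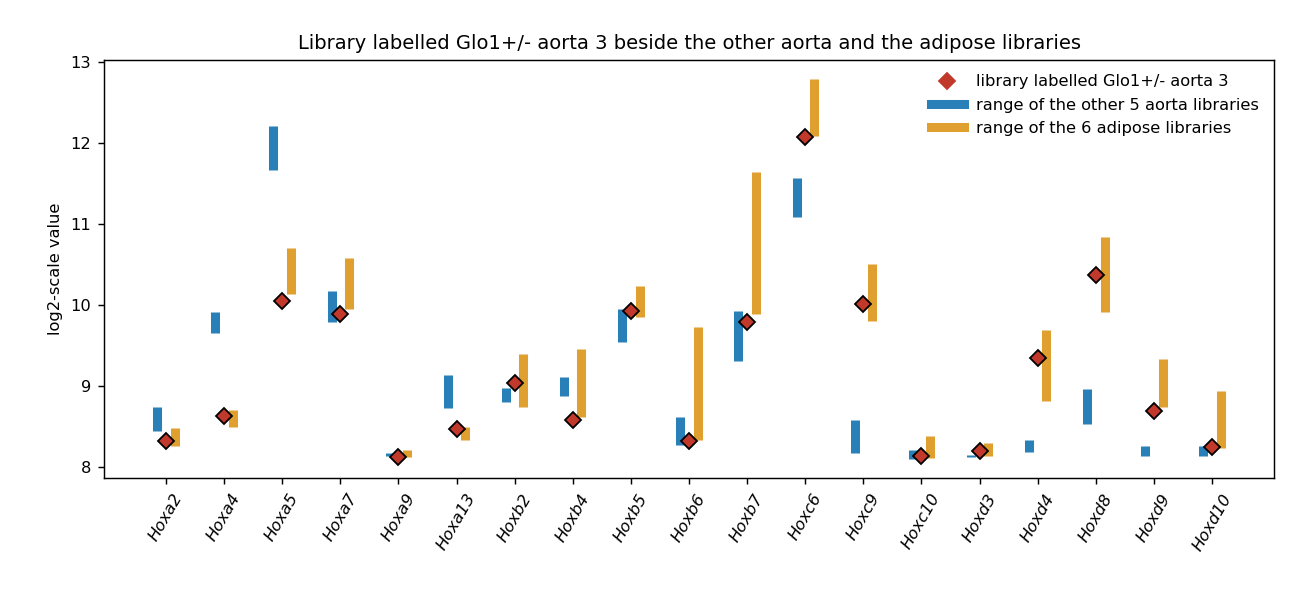
Log2-scale value of 19 Hox genes in the library labelled Glo1+/- aorta 3 (diamond) beside the range of the other 5 aortas (blue) and of the 6 adipose libraries (orange). Hoxa4 (8.63) lies among the adipose libraries, as do Hoxc9 (10.01), Hoxd4 (9.35) and Hoxd8 (10.37), and Hoxa5 (10.05) lies just below them.

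Across the 19 genes, the aorta minus kidney difference was lower at higher paralogue numbers. Of the 8 genes of paralogues 2 to 5, aorta had 4 higher and 4 lower means than kidney. Of the 5 genes of paralogues 6 to 8, 1 was higher (Hoxc6) and 4 lower, and of the 5 genes of paralogues 9 to 10, 0 were higher and 5 lower. Spearman's rho between paralogue number and the aorta minus kidney difference was -0.56 over 19 genes and -0.73 over 18 without Hoxa13. For kidney minus adipose tissue it was 0.55, or 0.59 without Hoxa13, and for aorta minus adipose tissue -0.29, or -0.47. The 19 genes were chosen as above the floor in all 6 arrays of at least 1 tissue. All 5 genes of paralogues 9 to 10 met this in kidney and 0 in aorta. Their lower aorta values, and with them part of rho, were therefore partly fixed by that choice. These are descriptions across genes, which share clusters, libraries and slides and are not replicates.

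**Figure D4:**
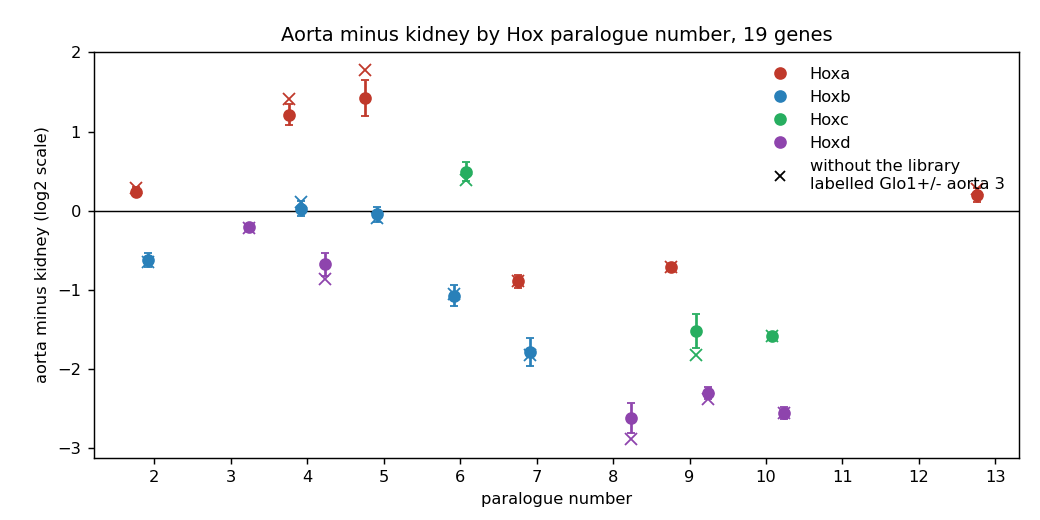
Aorta minus kidney difference (log2 scale, ± SE) of 19 Hox genes against paralogue number, coloured by cluster, with crosses for the difference without the library labelled Glo1+/- aorta 3. Hoxa4 and Hoxa5 lie above 0, Hoxd8, Hoxd9 and Hoxd10 lie below -2, and Hoxa13, read by 1 of 3 probes, lies slightly above 0.

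Genotype was compared within each tissue, 3 Glo1+/- libraries against 3 WT libraries, to ask whether loss of 1 Glo1 allele goes with a change in the Hox set. No Hox gene was called in any tissue, on average over tissues or for a genotype effect that differs between tissues. With limma 0 of 38 were called in adipose tissue (0.00389% of all probes), liver (0.658%), kidney (0.381%) and aorta (0% of all probes). At an unadjusted p under 0.05 there were 6 Hox genes in adipose tissue (11.4% of all probes), 3 in liver (11.6%), 5 in kidney (9.54%) and 4 in aorta (3.57%). A missed threshold does not show that the genotypes are alike, and an exact test of 3 against 3 libraries cannot go below 0.1.

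In adipose tissue the smallest p belonged to Hoxd9 and Hoxd8. Their Glo1+/- minus WT differences were 0.42 ± 0.10 (adjusted p = 0.264) and 0.59 ± 0.17 (adjusted p = 0.325), with the Glo1+/- libraries above the WT libraries without overlap (values above). Hoxb4 had 8.92, 9.45 and 9.05 in Glo1+/- adipose tissue, against 8.72, 8.62 and 8.75 in WT adipose tissue, a difference of 0.45 ± 0.14 (adjusted p = 0.344), with no overlap. Hoxa7 differed by 0.40 ± 0.14 (adjusted p = 0.373) and Hoxa5 by 0.32 ± 0.12 (adjusted p = 0.396). Of the 16 genes above the floor in adipose tissue, the 2 groups did not overlap for 6, with Hoxa5, Hoxa7, Hoxb4, Hoxd8 and Hoxd9 higher and Hoxb5 lower in Glo1+/-, while 24.4% of all probes above the floor there did not overlap. The kidney tubule gene Slc34a1 read 14.36, 8.22 and 9.84 in Glo1+/- adipose tissue, against 13.29, 9.75 and 8.08 in WT adipose tissue. It was highest in Glo1+/- adipose 1, and Hoxd8 and Hoxd9 were highest in Glo1+/- adipose 3, the library with the epididymal genes. Hepatocyte genes averaged 10.16, 9.36 and 8.61 in Glo1+/- adipose tissue, against 11.45, 11.28 and 9.56 in WT adipose tissue, with a median Glo1+/- minus WT difference of -1.74 over the list of 10 and 0 genes called. Above the floor were 7, 7 and 4 of the 10 in the Glo1+/- libraries and 7 in each WT library, and most Hox genes lay at the floor in liver. The part of kidney, epididymal or liver RNA in these values was not tested.

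In kidney the largest of the named differences was that of Hoxd10, -0.32 ± 0.10 (adjusted p = 0.291), with the 3 Glo1+/- kidneys below the 3 WT kidneys. On slide 2 alone, with 1 Glo1+/- and 3 WT kidneys, it was -0.19 ± 0.12 (adjusted p = 0.786). Hoxb6 differed by 0.19 ± 0.08 (adjusted p = 0.499), Hoxb7 by -0.20 ± 0.10 (adjusted p = 0.558) and Hoxc6 by -0.25 ± 0.12 (adjusted p = 0.558). The groups did not overlap for 3 of the 17 genes above the floor in kidney (Hoxb6 higher, Hoxb7 and Hoxd10 lower in Glo1+/-), beside 22.2% of all probes above the floor. Adipoq, an adipocyte gene, read 8.20, 8.66 and 8.11 in Glo1+/- kidney, against 8.11, 9.48 and 10.57 in WT kidney. The 3 WT kidneys stood in the same order for Adipoq and for Hoxc6, which was highest in adipose tissue. The 3 Glo1+/- kidneys did not, and Glo1+/- kidney 2 had the highest Adipoq and the lowest Hoxc6 of them. The 7 adipocyte genes had a median Glo1+/- minus WT difference of -0.43 in kidney, with 1 called lower, and their part in the Hoxc6 values was not tested.

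In liver Hoxb5 was lower in all 3 Glo1+/- libraries than in all 3 WT libraries, a difference of -0.26 ± 0.11 (adjusted p = 0.391), and Hoxa5 differed by -0.26 ± 0.10 (adjusted p = 0.312). Hoxb5 was 1 of the 2 genes above the floor in liver, and 27% of all probes above the floor there did not overlap. On slide 2, where 3 Glo1+/- livers stand beside WT liver 3 alone, both were called: Hoxb5 by -0.52 ± 0.11 (adjusted p = 0.00924) and Hoxa5 by -0.47 ± 0.11 (adjusted p = 0.0129). WT liver 3 had the highest Hoxa5 and Hoxb5 of the 6 livers, at 8.85 and 9.19, and as the lone WT library it is assumed there to vary like the Glo1+/- ones. Some marker lists of other cell types also averaged lower in Glo1+/- liver without overlap, while fibroblast and adventitia genes overlapped. Endothelial genes averaged 9.25 in each Glo1+/- liver, against 9.49 to 9.63 in WT liver, and smooth muscle genes 8.63 to 8.69, against 8.83 to 9.01. Mesothelial genes averaged 8.13 to 8.27, against 8.30 to 8.42. They lay near the liver floor of 8.35 to 8.41, with 0 to 2 of 6 genes above it in Glo1+/- livers. Brown adipocyte genes (8.46 to 8.52, against 8.55 to 8.62) and TALE cofactors (8.65 to 8.72, against 8.74 to 8.85) did not overlap either. The lack of overlap was therefore not particular to endothelium, smooth muscle and mesothelium. By the test 0 endothelial, 1 smooth muscle and 1 mesothelial gene were called lower. WT liver 3 had the highest endothelial and smooth muscle averages as well as the highest Hoxb5, and the part of these cell types in the Hox values was not tested. Hoxa13 differed by 0.04 ± 0.10 (adjusted p = 0.917).

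In aorta 1 of the 11 genes above the floor did not overlap, beside 10.9% of all probes above the floor: Hoxc6 was higher in Glo1+/- aorta, by 0.53 ± 0.21 (adjusted p = 0.948), or 0.33 ± 0.11 (adjusted p = 0.575) when the library labelled Glo1+/- aorta 3 was left out. Hoxd8 differed by 0.49 ± 0.41 (adjusted p = 0.948), and by -0.05 ± 0.14 (adjusted p = 0.924) without that library. Hoxa4 differed by -0.23 ± 0.31 (adjusted p = 0.948), and by 0.17 ± 0.10 (adjusted p = 0.687) without it, so the sign of both turned on 1 library. Hoxb2 differed by 0.09 ± 0.11 (adjusted p = 0.948). Averaged over the 4 tissues, Hoxd9 differed by 0.16 ± 0.05 (adjusted p = 0.301) and Hoxb6 by 0.21 ± 0.09 (adjusted p = 0.459). For these 2 fits 0 of 38 Hox genes were called (0.269% of all probes for the average and 0.28% for the interaction), and 4 and 8 had an unadjusted p under 0.05 (9.95 and 10.9% of all probes).

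**Figure D5:**
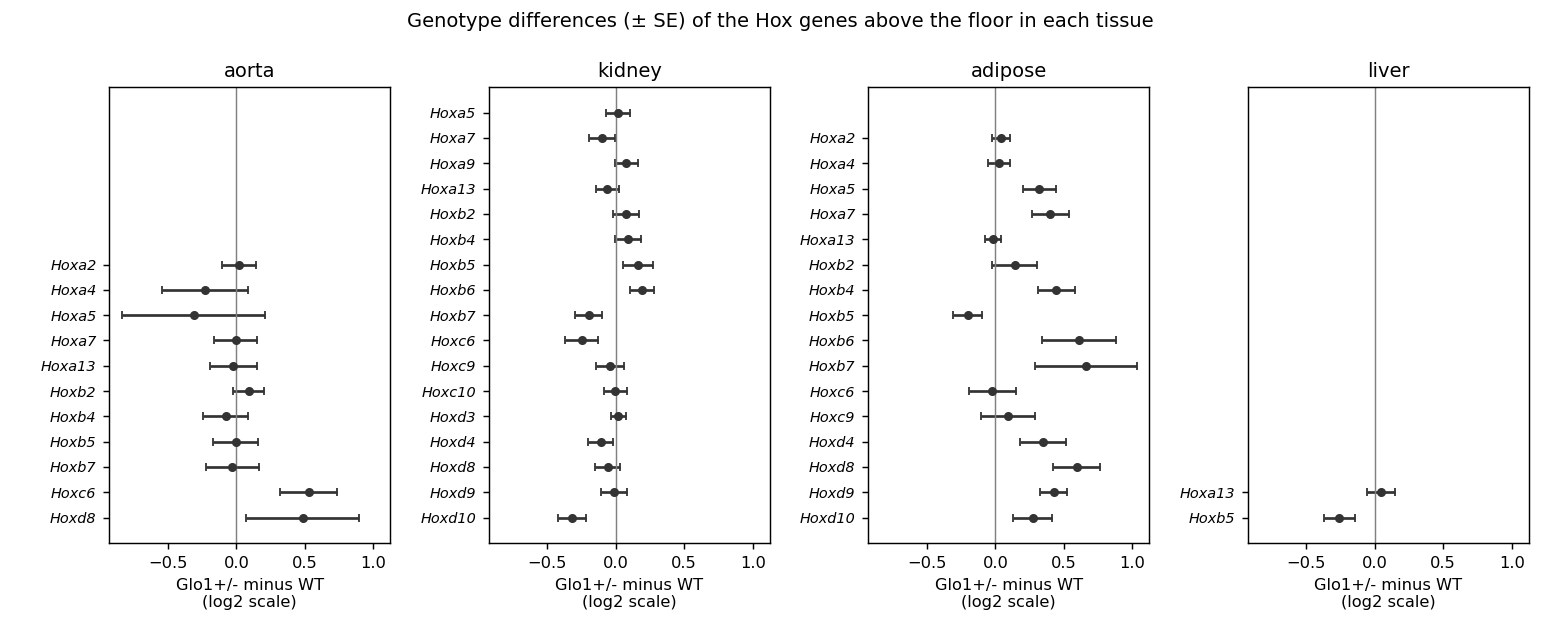
Glo1+/- minus WT difference (log2 scale, ± SE from limma, 3 libraries each) of the Hox genes above the floor in aorta (11), kidney (17), adipose tissue (16) and liver (2). None was called, and the widest errors are those of Hoxa4, Hoxa5 and Hoxd8 in aorta and of Hoxb7 in adipose tissue.

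Cofactors and regulators of Hox genes were set beside the same tissue comparisons. Of 7 measured TALE cofactor genes (9 in the list), 3 were higher and 1 lower in adipose tissue than in liver, 3 and 1 in aorta, and 1 and 0 in kidney, with list medians of 0.12, 0.04 and 0.00 beside 0.00 over all probes for each. Meis1, which partners posterior Hox proteins, had medians of 10.13 in aorta, 9.28 in kidney, 10.51 in adipose tissue and 9.20 in liver, and kidney minus adipose tissue was -1.25 ± 0.09 (adjusted p = 2.64e-10). Meis2 was higher in aorta, kidney and adipose tissue than in liver alike, by 0.92 ± 0.08 (adjusted p = 2.19e-09) in aorta, 0.85 ± 0.08 (adjusted p = 9.01e-09) in kidney and 0.84 ± 0.08 (adjusted p = 9.41e-09) in adipose tissue.

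Of 15 measured genes of retinoic acid synthesis, breakdown and receptors (17 in the list), 0 were higher and 5 lower in kidney than in liver, 6 and 6 in adipose tissue, and 4 and 5 in aorta, with list medians of -0.02, -0.05 and 0.01. Aldh1a1, which makes retinoic acid, had medians of 9.23 in aorta, 8.73 in kidney, 11.45 in adipose tissue and 13.29 in liver, with kidney minus liver at -4.52 ± 0.28 (adjusted p = 7.38e-12). Rxrg, a retinoid X receptor, was higher in aorta than in kidney, by 1.52 ± 0.09 (adjusted p = 7.14e-12), and Cyp26a1, which breaks retinoic acid down, was lower in kidney than in liver, with a difference of -0.41 ± 0.06 (adjusted p = 6.3e-06).

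Of 20 measured Polycomb and Trithorax genes (22 in the list), 5 were higher and 5 lower in kidney than in liver, 6 and 6 in adipose tissue, and 4 and 7 in aorta, with list medians of 0.01, 0.02 and 0.04. In the order TALE, retinoic acid and Polycomb, the called genes were 57.1, 60 and 55% of each list for aorta minus liver (38.4% of all probes), 14.3, 33.3 and 50% for kidney minus liver (33.2%), and 57.1, 80 and 60% for adipose tissue minus liver (40.4%). With slide as a block the called genes in the same order were 2, 3 and 4 for aorta minus liver, in place of 4, 9 and 11, and 2, 6 and 6 for adipose tissue minus liver, in place of 4, 12 and 12, while kidney minus liver had 1, 5 and 10 with and without it. Phc1, a subunit of Polycomb repressive complex 1, was higher in kidney than in liver, by 1.85 ± 0.07 (adjusted p = 1.22e-15), and aorta minus kidney was -1.02 ± 0.07 (adjusted p = 4.56e-11). Kdm6b, a demethylase of the Polycomb mark, was higher in aorta than in kidney, by 0.70 ± 0.08 (adjusted p = 2.65e-07). In these 3 lists no gene was called for genotype in any tissue.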

How the data were processed

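Total RNA was measured on 24 Illumina bead arrays, 3 Glo1+/- and 3 WT libraries in each of 4 tissues. The authors deposited 1 value per probe and array on a log2 or similar variance-stabilised scale, made with lumi 2.32.0 per the submitters' processing notes; which background correction, transformation and normalization they used is not given in the sources used here. The values were used as deposited, with no detection p-values and no filter. Of 25697 probes, 23978 carry 1 gene symbol in the platform annotation, 0 several and 1719 none. Gene IDs of all 38 Hox genes were found in the RefSeq gene table of GRCm38.p6, and 0 symbols changed.

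limma 3.58.1 in R 4.3.3 (lmFit, eBayes with a trend, 2-sided, Benjamini-Hochberg over all probes) was fitted to all 24 arrays as 8 group means for tissues, the average genotype effect and the interaction, and to the 6 arrays of each tissue for genotype. The scripts were tested on simulated data. Precision is limited by having 3 arrays in each group. Where the brighter tissue is compared with one at or under its floor in every array, a bound replaces the fold.

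The alternatives were quantile normalization, a filter on probes above the floor on at least 3 arrays, no trend, the mean of all probes of a gene, slide as a block or within 1 slide, other floors, the replicate block, the WT arrays alone, and leaving out each library, both aorta libraries numbered 3 or both adipose libraries numbered 1. Equal replicate numbers were checked for pairing through the correlation of deviations from group means. In adipose tissue it was 0.68, 0.17 and 0.37 for the 3 pairs of equal number, all over 0.1. Glo1+/- adipose 2 with WT adipose 3 had 0.30, and the other unequal pairs -0.58 to 0.04. The libraries numbered 1 also had the highest kidney tubule averages, 10.99 and 10.13. The check therefore does not settle whether the numbers pair the adipose libraries. In liver, kidney and aorta it did not exceed 0.1 in every pair of equal number. The replicate block was used as an alternative only.

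Genes named are the 12 Hox genes with the largest F over tissues and, for genotype, up to 4 per tissue with the smallest p among those above the floor; any other Hox gene may be named for its level or for a library that stood apart. The members, gene lists and alternatives were chosen with earlier results of these data known.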

Additional observations from a re-analysis of the deposited data

Results flagged for a closer look

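Each Hox gene above the floor in some array of a tissue was examined in the 6 arrays of that tissue, 65 sets in all, for a highest or lowest library whose gap to the nearest other library, divided by the range, exceeded 0.625. There were 11 such sets. The limit of 0.625 is passed by about 1 in 20 sets that are independent and not selected, and these sets were neither. They share the same libraries, and Hoxc4 and Hoxd9 in aorta and Hoxc8 in liver entered only through the 1 library then flagged. The count was therefore not compared with chance.

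Of these, 6 fell on the library labelled Glo1+/- aorta 3. It was low for Hoxa4, at 8.63 against 9.66 to 9.91 in the other 5 aortas, and for Hoxa5, at 10.05 against 11.67 to 12.21. It was high for Hoxc9, at 10.01 against 8.17 to 8.59, for Hoxd4, at 9.35 against 8.19 to 8.34, for Hoxd8, at 10.37 against 8.53 to 8.97, and for Hoxd9, at 8.70 against 8.14 to 8.26.

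In adipose tissue, Glo1+/- adipose 3 stood apart for Hoxb2, at 9.39 against 8.74 to 8.96, and for Hoxb6, at 9.73 against 8.34 to 8.85. Glo1+/- adipose 1 stood apart for Hoxd10, at 8.94 against 8.24 to 8.41.

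The other 2 were close to the floor: Hoxc4 was 8.50 in Glo1+/- aorta 1 against 8.22 to 8.30 in the other aortas, and Hoxc8 was 8.40 in Glo1+/- liver 1 against 8.18 to 8.26 in the other livers.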

How the results depend on the processing

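With slide as a block, 6 Hox genes were called for aorta minus liver (12 without), 12 for adipose tissue minus liver (19), 8 for kidney minus adipose tissue (15) and 0 for aorta minus adipose tissue (12). Within slide 2, 2 Hox genes were called for genotype in liver, where WT liver 3 is the lone WT library. A floor fixed at 9 left 12 genes above it in kidney, 5 in aorta, 7 in adipose tissue and 0 in liver. Liver had 4 above the 95th percentile floor and 5 above a floor taken from the spread below each array's mode. Leaving out 1 library gave 10 to 14 calls for aorta minus liver, 19 to 24 for kidney minus liver, 16 to 21 for adipose tissue minus liver, 9 to 15 for aorta minus adipose tissue, 13 to 19 for kidney minus adipose tissue, 18 to 22 for aorta minus kidney and 21 to 26 for the F test. It gave 0 for genotype in each tissue, for the average and for the interaction, and 11 to 12 genes above the floor in aorta, 17 to 18 in kidney, 16 in adipose tissue and 2 to 3 in liver.

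With the replicate block, 0 Hox genes were called for genotype in any tissue (the adjusted p of Hoxd9 in adipose tissue was 0.188), and tissue counts were 11 for aorta minus liver, 21 for kidney minus liver, 18 for adipose tissue minus liver, 11 for aorta minus adipose tissue, 14 for kidney minus adipose tissue, 19 for aorta minus kidney and 22 for the F test. Of the values of the named genes under these alternatives, 3857 kept their side of the threshold, 50 passed it, 72 no longer did and 0 turned round after a call. Direction was compared only where the main or the alternative fit was called. Uncalled values among the 3857 could therefore change sign, as those of Hoxd8 and Hoxa4 for genotype in aorta did. Among the Hox genes not named by that rule, Hoxb3 and Hoxd11 turned round for adipose tissue minus liver with slide as a block, to 0.02 and 0.01. The cause of these changes was not tested. Levels near the floor (8.22 to 8.41) limit what can be said of dim genes.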

Other observations

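Homeobox genes linked to the Hox clusters or derived from the same ancestral set were mostly at the floor, apart from the Meox pair. Of 15 measured genes, 2 were higher and 2 lower in adipose tissue than in liver, 3 and 1 in aorta, and 2 and 1 in kidney. These are 26.7, 26.7 and 20% of the list, below the 40.4, 38.4 and 33.2% of all probes called. Meox2, a regulator of vessel and muscle precursors, had medians of 10.22 in aorta, 8.08 in kidney, 10.47 in adipose tissue and 8.09 in liver. Aorta minus kidney was 2.18 ± 0.12 (adjusted p = 8.98e-13) and kidney minus adipose tissue -2.36 ± 0.12 (adjusted p = 2.79e-13). Meox1 was higher in adipose tissue than in liver, by 1.15 ± 0.09 (adjusted p = 9.29e-10).

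Other positional transcription factors, 37 measured of 42 listed, were called about as often as all probes. In kidney against liver 11 were higher and 4 lower, in adipose tissue against liver 10 and 5, and in aorta against liver 9 and 5, which are 40.5, 40.5 and 37.8% of the list beside 33.2, 40.4 and 38.4% of all probes. Irx3, of the nephron's intermediate segment, was higher in kidney than in liver, by 3.08 ± 0.10 (adjusted p = 1.14e-16). Lhx1 and Pax8, both needed for nephron formation, were higher in kidney than in liver by 0.88 ± 0.04 (adjusted p = 9.57e-14) and 0.55 ± 0.04 (adjusted p = 1.08e-09). Gata6 was higher in aorta than in kidney, by 1.96 ± 0.08 (adjusted p = 7.61e-15), and Tcf21, of stromal and podocyte precursors, was lower, with a difference of -1.21 ± 0.12 (adjusted p = 1.39e-08). Wt1, of mesothelium and podocytes, was higher in adipose tissue than in liver, by 1.93 ± 0.13 (adjusted p = 6.66e-11). Tbx3 was lower in kidney than in liver, with a difference of -1.62 ± 0.10 (adjusted p = 1.34e-11).

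Of 16 measured genes that flank the Hox clusters, 5 were higher and 1 lower in kidney than in liver, 5 and 1 in adipose tissue, and 4 and 4 in aorta, or 37.5, 37.5 and 50% beside 33.2, 40.4 and 38.4% of all probes. With slide as a block, 2 flanking genes were called for aorta minus liver in place of 8, and 7 positional factors in place of 14. Jazf1, beside the Hoxa cluster, was higher in adipose tissue than in liver, by 1.26 ± 0.11 (adjusted p = 1.91e-09). Skap2, on the other side of Hoxa, was higher in kidney than in liver, by 0.65 ± 0.08 (adjusted p = 7.32e-07), and Snx11, near the Hoxb cluster, was higher in adipose tissue than in liver, by 0.90 ± 0.11 (adjusted p = 2.78e-07). In these 3 lists no gene was called for genotype in any tissue.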
